A study of Caenorhabditis elegans with 8 samples.

Results

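The mRNAs described here encode the proteins of the cytosolic ribosome of the nematode Caenorhabditis elegans. They were taken by WormBase gene number: 3 IDs of the rla genes, 45 of the rpl genes and 31 of the rps genes, 79 of the 12240 gene IDs in the count table. The rla and rpl IDs (48) were counted as large subunit and the rps IDs (31) as small subunit. The reference gene table used here carries no WormBase ID, so the family names rest on the ID numbers alone and could not be checked against the data. Apart from rla-0, rla-1 and rla-2, which the selection rule names in ID order, the IDs are given without a symbol, gene length or chromosome.

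The libraries were made by iCLIP, in which ultraviolet light fixes RNA to the proteins that touch it, a protein is purified, and the RNA fixed to it is sequenced. All 8 came from plate-grown larvae of the L4 stage whose genome holds a single integrated copy of FLAG-tagged FOG-3, a protein needed for germ cells to become sperm. In 4 libraries FOG-3 was purified with the FLAG antibody. In the 4 controls the same worms went through the same steps with that antibody left out, so both groups carry the tagged protein and differ in the purification. The labels do not give the promoter of the transgene, and libraries are called here by the 4-letter tags of the count table. Where 4 values of a group are listed without tags, they follow the alphabetical order of the tags. Whole larvae were lysed, so the number of cells that hold an RNA and its amount per cell cannot be told apart.

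A ribosome has a small subunit, which reads the mRNA, and a large subunit, which joins amino acids. The rpl genes encode proteins of the large subunit, the rps genes those of the small one, and the rla genes encode the stalk of the large subunit, to which translation factors bind. Cells that grow or divide, such as those of the larval germline, make these proteins in nearly equal numbers, and their mRNAs are among the most abundant messages of most eukaryotic cells. The controls, which show the RNA carried through the steps without specific purification, are the reference for every value below.

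The FOG-3 libraries held 76790 to 186739 reads assigned to genes and the controls 14964 to 74892. The 10 most abundant gene IDs took 38.9% to 48.2% of these reads in FOG-3 libraries and 71.4% to 81.0% in controls, and no ribosomal protein ID is among them. This difference in make-up changes what any share is measured against, so the family's share and the tests below are given with more than 1 denominator.

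Ribosomal protein mRNAs made up a small part of the reads in both groups. In share of gene-assigned reads, their median pooled ratio between the groups was 1.53, against 3.86 over the 886 tested gene IDs. For reads outside the 10 most abundant IDs these medians were 0.655 and 1.65, on opposite sides of 1. The 886 are not a neutral reference, since 828 exceeded the filter's level in all FOG-3 libraries and 216 in all controls. Ribosomal protein mRNAs held 0.593% ± 0.086 (SD, n = 4) of gene-assigned reads after purification of FOG-3 against 0.363% ± 0.139 without the antibody. The means had a ratio of 1.63. Among the FOG-3 libraries the share was 0.653% in CGGA (95% interval 0.599% to 0.711%), 0.551% in GGCA (0.506% to 0.600%), 0.492% in GGTT (0.444% to 0.544%) and 0.674% in TGGC (0.637% to 0.712%). Among the controls it was 0.516% in AATA (0.439% to 0.603%), 0.182% in CCGG (0.126% to 0.254%), 0.348% in TTAA (0.260% to 0.455%) and 0.407% in TTGT (0.363% to 0.456%). The groups overlapped, since control AATA lay above FOG-3 library GGTT, and the lowest share was in CCGG, which held only 34 reads of these mRNAs. The intervals are exact Clopper-Pearson intervals for counting error and leave out the spread between libraries. They treat reads as independent, though it is not given whether PCR copies were collapsed.

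The direction of the family changed with the denominator. Of the reads outside the 10 most abundant gene IDs, ribosomal protein mRNAs held 1.03% ± 0.19 (SD, n = 4) in FOG-3 libraries against 1.59% ± 0.53 in controls, which is 0.644 times as much. The FOG-3 libraries had 0.838% to 1.26% and the controls 0.957% to 2.22%, so that the groups again overlapped, through control CCGG. Per 1000 reads of the single most abundant gene ID, the FOG-3 libraries had 16.9 to 27.4 ribosomal protein reads and the controls 3.36 to 11.05. On that measure every FOG-3 library lay above every control, with a ratio of the means of 2.83. This was not particular to the family. Pooled over libraries, the ratio on this measure was 1.70 for all gene-assigned reads and 2.64 for the family. Of the 886 tested gene IDs, 822 lay above 1, with a median of 6.57. The 77 ribosomal protein IDs with a control read had a median of 2.61. Ribosomal protein reads were thus more frequent relative to the single most abundant ID and, on average, less frequent relative to the reads outside the 10 most abundant IDs. No test was made of these sums, because the family was chosen with earlier results of the data known.

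**Figure D1:**
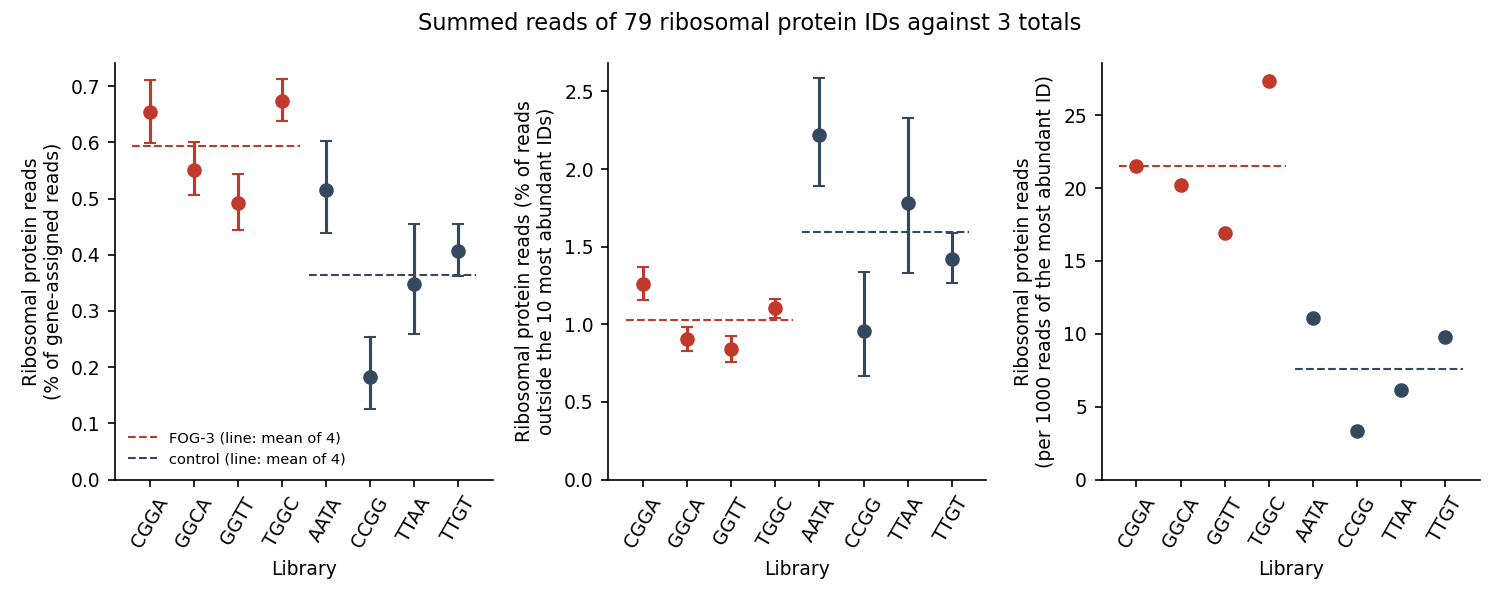
Summed reads of the 79 ribosomal protein IDs in each library, as a percentage of gene-assigned reads (left), as a percentage of reads outside the 10 most abundant gene IDs (middle) and per 1000 reads of the most abundant ID (right). Points are libraries, bars exact 95% counting intervals (left and middle) and dashed lines group means of 4. The FOG-3 mean is the higher one on the left (0.593% against 0.363%) and the lower one in the middle (1.03% against 1.59%), and the groups separate only on the right.

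The number of ribosomal protein mRNAs seen differed less between the groups than the number of all gene IDs did. FOG-3 libraries had a read for 72 to 79 of the 79 IDs. Among the controls, TTGT had reads for 72 of them, AATA for 60, TTAA for 29 and CCGG for 26. The counts were lowest in the 2 shallowest controls. At an equal depth of 14964 reads, a FOG-3 library would have shown 45.9 ± 3.4 ribosomal protein IDs (SD, n = 4) and a control 33.6 ± 10.2, which differ 1.37-fold. The groups overlapped, with 42.7 in GGTT and 44.6 in control AATA. The ratio over all gene IDs at that depth was 2.59. That depth counts all gene-assigned reads, of which the 10 most abundant IDs took a mean of 77.4% in controls and 41.8% in FOG-3 libraries. Equal depth thus leaves fewer reads for the other IDs in a control, and these numbers were made with this denominator only. Over all libraries of a group, 2 of the 79 ribosomal protein IDs (2.53%) had no control read, where 6854 of the 12240 gene IDs (55.997%) had none. Most gene IDs are rarer than these, with a median of 4 reads over the FOG-3 libraries where the ribosomal protein IDs had a median of 31.

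Reads were spread over the family in much the same way in both groups. The 79 IDs held 3 to 110 reads over the 4 FOG-3 libraries and 0 to 22 over the 4 controls, where their median was 6. The 10 IDs with the most reads held 31.2% of the family's reads in FOG-3 libraries and, chosen anew, 30.8% in controls, and 8 IDs were in both sets. Across the 79 IDs, pooled FOG-3 and control reads on a log2(reads + 1) scale had a Pearson correlation of 0.83 and a Spearman correlation of 0.82. Both groups share each mRNA's length and its abundance in the larvae, neither of which was measured here. Between single controls the Pearson correlation over the same IDs ran only from 0.01 to 0.42, where most counts were below 10, and between single FOG-3 libraries from 0.67 to 0.82. Reads were not compared between mRNAs as levels, since that needs their lengths.

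Of the 77 IDs with a control read, 62 held a larger share of the pooled gene-assigned reads with the antibody than without it and 15 a smaller one. Their median ratio was 1.53 (quartiles 1.10 and 1.97). Over the 886 gene IDs that passed the filter on low counts, the same ratio had a median of 3.86 (quartiles 1.25 and 12.4). Against the reads outside the 10 most abundant IDs, 13 of the 77 lay above 1, with a median of 0.655, where the 886 IDs had a median of 1.65. The 886 are not a neutral reference. Of them, 828 exceeded the filter's level in all 4 FOG-3 libraries, the deeper set, and 216 in all 4 controls. The 2 IDs with no control read, both of the rpl genes, held 3 and 4 reads in FOG-3 libraries, which is too few for a ratio.

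**Figure D2:**
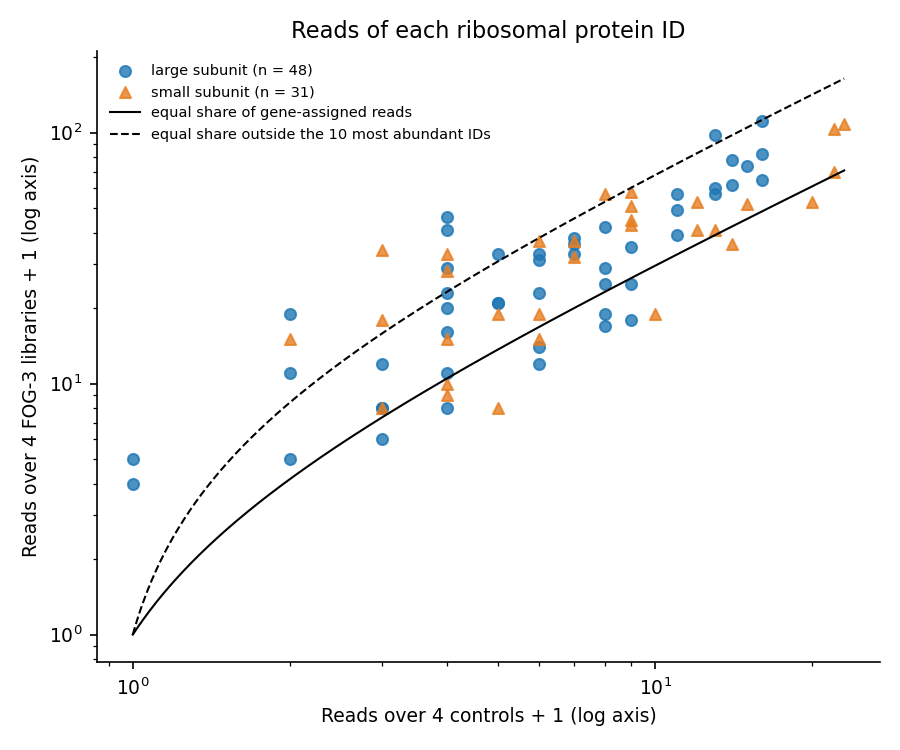
Each point is 1 ribosomal protein ID, with its reads over the 4 controls plus 1 (horizontal, log axis) and over the 4 FOG-3 libraries plus 1 (vertical, log axis). Circles are large-subunit and triangles small-subunit IDs. Most lie between the solid line, where an ID has the same share of gene-assigned reads in both groups, and the dashed line, where it has the same share of reads outside the 10 most abundant IDs. Of the 77 IDs with a control read, 62 lie above the solid line and 13 above the dashed one.

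Large-subunit and small-subunit mRNAs were recovered in nearly the same proportion in both groups. This ratio is taken within a library and needs no scaling between libraries. Large-subunit reads were 316 of 526 ribosomal protein reads in FOG-3 library CGGA, 303 of 535 in GGCA, 217 of 378 in GGTT and 725 of 1258 in TGGC, which is 60.1%, 56.6%, 57.4% and 57.6%. In the controls they were 87 of 158 in AATA, 16 of 34 in CCGG, 27 of 52 in TTAA and 170 of 305 in TTGT, which is 55.1%, 47.1%, 51.9% and 55.7%. All 4 FOG-3 libraries thus lay above all 4 controls, but the nearest pair, GGCA and TTGT, differed by less than their counting intervals (52.3% to 60.9% and 49.97% to 61.4%).

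The mean log2 ratio of large-subunit to small-subunit reads was 0.46 ± 0.09 (SD, n = 4) in FOG-3 libraries against 0.14 ± 0.23 in controls, which differ by 0.32. Without controls CCGG and TTAA, an alternative chosen after seeing the data, the difference was 0.15. Pooled over libraries, the large subunit held 57.9% of the family's reads in FOG-3 libraries (95% interval 55.99% to 59.8%) and 54.6% in controls (50.4% to 58.9%), so that the pooled intervals overlapped. The 2 controls farthest below the others, CCGG and TTAA, are those with the fewest reads. The median pooled ratio of the share of gene-assigned reads was 1.58 over the 46 large-subunit IDs with a control read and 1.49 over the 31 small-subunit IDs.

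**Figure D3:**
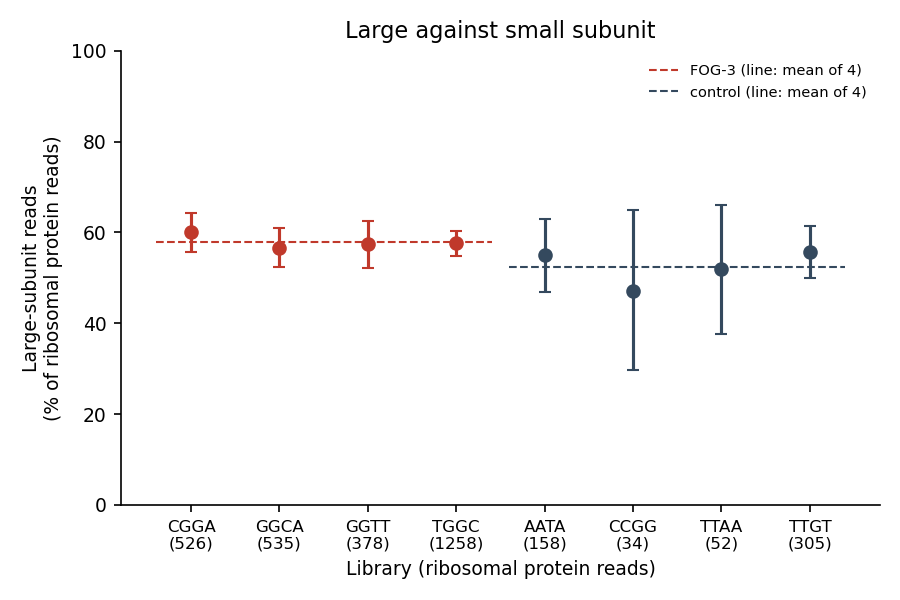
Large-subunit reads as a percentage of all ribosomal protein reads in each library (vertical axis), with exact 95% counting intervals and, under each tag, the number of ribosomal protein reads. Dashed lines are group means of 4. The FOG-3 libraries sit at 56.6% to 60.1% and the controls at 47.1% to 55.7%, and the interval of every control overlaps that of every FOG-3 library.

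Of the stalk genes, rla-0 encodes the protein that anchors the stalk to the large subunit. It had 24, 17, 11 and 45 reads in the 4 FOG-3 libraries (CGGA first, TGGC last), and 2, 1, 0 and 9 in the 4 controls (AATA first, TTGT last). TMM factors scale libraries on the assumption that most gene IDs do not differ between them. With TMM the 886 tested IDs still had a median log2 fold change of 0.74, so 0 is not their middle. Scaled this way, rla-0 had 139 ± 53 CPM (read counts scaled to library size, SD, n = 4) in FOG-3 libraries. The controls had 89.3 ± 69.0 CPM. The groups overlapped: 167.8 CPM in control TTGT exceeded 161.3 in TGGC. The log2 fold change was 0.15 ± 0.47 (SE, by the edgeR quasi-likelihood test, Benjamini-Hochberg adjusted p = 0.78 over all 886 IDs). It was 1.48 without control TTGT, which held 9 of the 12 control reads (unadjusted p = 0.049 and adjusted p = 0.072 in edgeR).

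The acidic stalk proteins that rla-0's product holds in place are encoded by rla-1 and rla-2, which had too few reads to pass the filter. For rla-1, the reads were 4, 9, 7 and 17 in the FOG-3 libraries and 1, 1, 0 and 4 in the controls, in the same order. Its pooled share of gene-assigned reads was 1.95 times the control share (95% counting interval 0.814 to 5.64). For reads outside the 10 most abundant IDs the ratio of rla-1 was 0.83. For rla-2, there were 1, 1, 1 and 2 reads in the FOG-3 libraries, while the controls had 2 reads, both in AATA. Its ratio was 0.789, with an interval of 0.129 to 8.28 that shows no direction. Together the 3 stalk genes held 5.15% of ribosomal protein reads in FOG-3 libraries (95% interval 4.35% to 6.06%) and 3.64% in controls (2.24% to 5.57%).

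The filter left 10 of the 79 IDs for the test of single genes, 6 of the large and 4 of the small subunit, which held 30.3% of all ribosomal protein reads. With TMM scaling 0 of the 10 were called higher in FOG-3 libraries (also 0 at an unadjusted p under 0.05), where 45.3% of all tested gene IDs were, and 2 of the 10 were called lower, where 27.5% were (edgeR, adjusted p under 0.05). DESeq2 called 2 higher (63.4% of all IDs) and 0 lower (9.82%), and limma-voom 0 higher (44.2%) and 2 lower (26.9%). Of the 10, 6 exceeded the filter's level in all 4 FOG-3 libraries and 0 in all 4 controls. The 10 are therefore not a sample of the family, and their counts are given as a description.

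None of the 6 tested large-subunit IDs was called with TMM scaling (0 of 6 in edgeR, and 0 at an unadjusted p under 0.05, while limma-voom called 1 lower). The rpl ID with the most reads, WBGene00004412, had 27, 24, 11 and 48 reads in the 4 FOG-3 libraries and 5, 0, 3 and 7 in the 4 controls. Its level was 159 ± 58 CPM in FOG-3 libraries against 180 ± 147 CPM in controls (SD, n = 4). It differed by -0.02 ± 0.45 on the log2 scale (SE), with an edgeR adjusted p of 0.97. The 4 controls ran from 0 to 338 CPM and enclosed all FOG-3 libraries.

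WBGene00004415 followed with 18, 14, 10 and 39 reads in the FOG-3 libraries and 6, 0, 3 and 6 in the controls, a log2 fold change of -0.46 ± 0.44 (edgeR adjusted p = 0.33). The third by reads, WBGene00004456, did not pass the filter, with 26, 15, 12 and 24 reads against 4, 1, 1 and 7. Its pooled share of gene-assigned reads was 1.87 times that of the controls (95% counting interval 1.03 to 3.67). The interval leaves out the spread between libraries. For reads outside the 10 most abundant IDs the ratio of WBGene00004456 was 0.80, on the other side of 1. In these 3 IDs, as in rla-0, the deepest control, TTGT, lay within the range of the FOG-3 libraries in TMM-scaled CPM. WBGene00004418 had a log2 fold change of -0.48 ± 0.44 (edgeR adjusted p = 0.32) and turned to 0.12 without control TTGT, as WBGene00004415 did to 0.045 without AATA. WBGene00004412 had 0.35 without AATA and 0.28 without TTGT, none of these called. WBGene00004430 was the lowest of the tested large-subunit IDs, with -0.77 ± 0.42 (edgeR adjusted p = 0.099).

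Both IDs called lower belong to the small subunit. WBGene00004477 had 6, 13, 6 and 27 reads in the 4 FOG-3 libraries and 5, 2, 3 and 9 in the 4 controls. That is 50.6, 81.5, 47.0 and 96.8 CPM after TMM scaling in the FOG-3 libraries and 253, 176, 338 and 168 CPM in the controls. Every control lay above every FOG-3 library, and the difference was -1.41 ± 0.39 (SE) on the log2 scale, with an edgeR adjusted p of 0.0013. Without FOG-3 library CGGA or without control TTGT this call was lost, with log2 fold changes of -0.90 and -1.12.

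WBGene00004469 had 14, 13, 12 and 30 reads in the FOG-3 libraries and 8, 0, 3 and 10 in the controls, in the same order. Its level was 100.3 ± 15.9 CPM in FOG-3 libraries against 232 ± 180 CPM in controls (SD, n = 4). The groups overlapped, since control CCGG had no read, and the log2 fold change was -1.16 ± 0.40 (edgeR adjusted p = 0.0059). This call was lost without FOG-3 library CGGA (-0.79) and without control AATA (-0.67), TTAA (-0.98) or TTGT (-0.83). The number of small-subunit IDs called lower was thus 0 without CGGA, 0 without TTGT, and 1 without AATA or TTAA.

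The other 2 tested small-subunit IDs are those with the most reads of the rps genes. WBGene00004491 had 24, 22, 14 and 47 reads in the FOG-3 libraries and 8, 0, 4 and 10 in the controls, and WBGene00004471 had 18, 29, 11 and 44 against 8, 3, 0 and 10. Their log2 fold changes were -0.62 ± 0.40 (edgeR adjusted p = 0.16) and -0.61 ± 0.41 (adjusted p = 0.17). In each, the 1 control with no read lay below all FOG-3 libraries in CPM. The other 3 controls of WBGene00004471 lay above them, as did 2 of WBGene00004491, while control TTGT lay among its FOG-3 libraries. The median log2 fold change was -0.47 over the 6 large-subunit IDs and -0.89 over the 4 small-subunit IDs. The large-subunit median turned to 0.045 without control AATA (9 IDs tested) and to 0.052 without control TTGT (8 IDs), where the small-subunit median was -0.42 and -0.59. Without the 2 shallowest controls, CCGG and TTAA, 18 IDs passed the filter and again 0 were called higher (35.6% of all tested IDs) and 2 lower (19.7%). A difference between the subunits was not tested, since the IDs of a subunit are not replicates.

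The sign of these values depended on the scaling. The median log2 fold change of the 10 tested IDs was -0.62 with TMM, 0.59 with total counts and 1.35 with the most abundant ID as the scale. The median of all 886 tested IDs moved with it, from 0.74 to 1.94 and 2.68. With total counts, 2 of the 10 were called higher (67.3% of all tested IDs) and 0 lower (9.48%). The 2 were rla-0, at a log2 difference of 1.35 ± 0.44 (SE), with an edgeR adjusted p of 0.0034, and WBGene00004412, with 1.18 ± 0.43 (adjusted p = 0.0081). When scaled on the most abundant ID, 8 of the 10 were called higher (79.7%) and 0 lower (0.677%), all but WBGene00004469 and WBGene00004477.

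The other settings tried gave 0 higher and 1 lower with TMMwsp factors (50.3% and 21.8% of all tested IDs), and 0 and 2 with upper-quartile factors (49.7% and 24.3%), with totals that leave out the 10 most abundant IDs (44.7% and 27.4%) and with 1 ID kept of each identical set (44.5% and 26.6%). With DESeq2's size factors, edgeR called 2 higher and 0 lower (66.4% and 10.4%).

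Relative to the median of all tested IDs, the 10 had a median of -1.35 with TMM. WBGene00004477 was the lowest at -2.15 and rla-0 the highest at -0.59. All 10 lay below that median, and 8 of them lay above the lower quartile of all tested IDs, a log2 fold change of -0.85. A change of scaling moves all IDs by about the same amount, so it leaves this distance nearly fixed and is no test of it. When libraries were instead scaled on the summed ribosomal protein reads, so that each ID was set against its own family, 0 of the 10 were called in either direction (edgeR, where 54.1% of all tested IDs were called higher and 15.7% lower), with 1 at an unadjusted p under 0.05. That ID was WBGene00004477, with a log2 fold change of -0.90 ± 0.43 (adjusted p = 0.054). At the other end rla-0 had 0.75 ± 0.50 (adjusted p = 0.17).

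**Figure D4:**
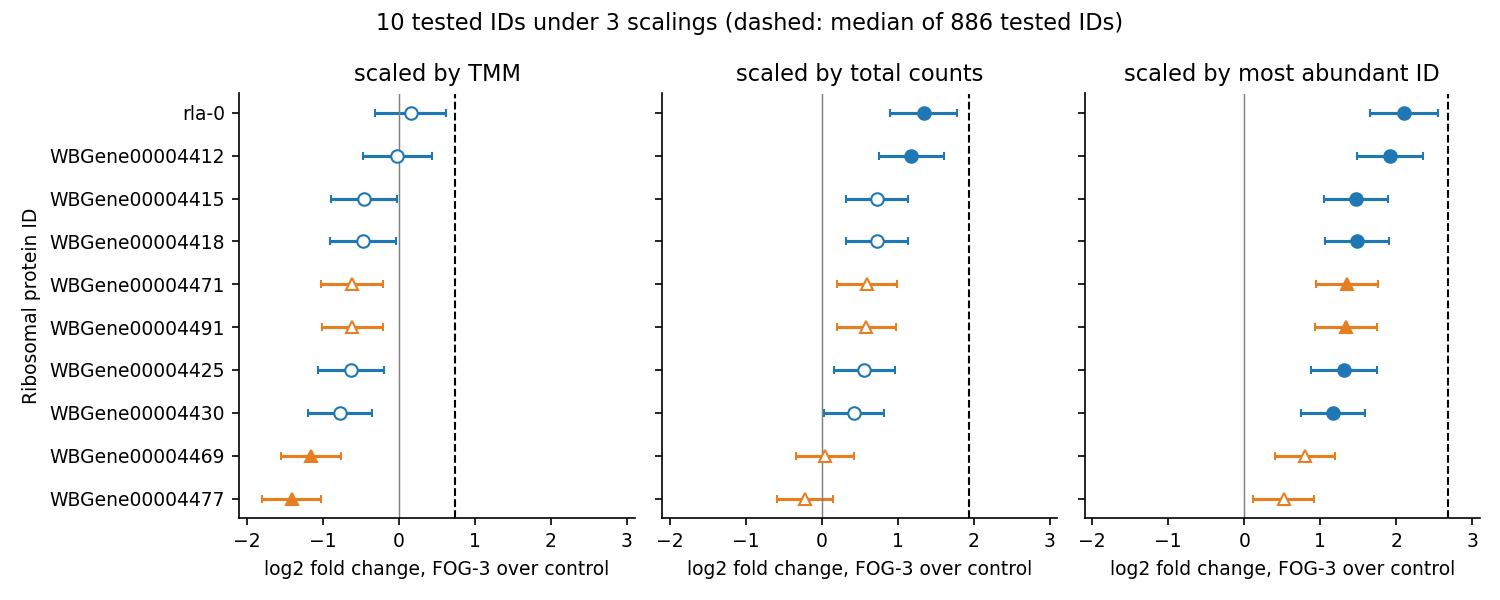
Log2 fold change, FOG-3 over control, with its standard error (horizontal axis) for the 10 ribosomal protein IDs that passed the filter, under 3 scalings. Circles are large-subunit and triangles small-subunit IDs, filled where the edgeR adjusted p is under 0.05, and the dashed line is the median of all 886 tested gene IDs. The filled points are 2 lower IDs with TMM, 2 higher with total counts and 8 higher when scaled on the most abundant ID, and the dashed line moves with the points, since a scaling shifts all IDs about alike.

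Without the filter all 79 IDs could be tested, and 0 were called (edgeR with TMM factors, adjusted p under 0.05), where 8.82% of all 12240 gene IDs were, 7.75% higher and 1.08% lower. The smallest adjusted p was 0.29. At an unadjusted p under 0.05 there was 1 in this fit, an rpl ID, WBGene00004433, singled out after its values were seen. It had 7, 11, 3 and 24 reads in the 4 FOG-3 libraries and 2, 0, 0 and 1 in the 4 controls, a log2 fold change of 1.54. With a minimum of 1 CPM in 4 libraries, 77 of the 79 passed and 0 were called, where 22.3% of 5258 gene IDs were called higher and 3.65% lower. In that fit 2 of the 77 had an unadjusted p under 0.05, both lower and both of the small subunit (smallest adjusted p 0.099). Without the filter, the 79 log2 fold changes had a median of 0.02, with 0.08 over the large and -0.0011 over the small subunit, and 42 of them were above 0. Over all 12240 gene IDs, most of which have a few reads in FOG-3 libraries and none in controls, the median was 1.15, and 72 of the 79 lay below it.

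TMM-scaled CPM overlapped between the groups for 75 of the 79 IDs. For 1 of the 79 (1.27%) all FOG-3 libraries lay above all controls, where this held for 14.3% of all gene IDs, and for 3 (3.797%) they lay below, where 1.79% did. To lie below, an ID needs a read in every control, which 8 of the 79 had. Of all gene IDs, 55.997% had no control read and could not qualify, so these percentages do not show an excess in the family. All 4 IDs without overlap belong to the small subunit and are named here after their values were seen. The 1 above is WBGene00004498, with 5, 6, 9 and 13 reads in the FOG-3 libraries and 0, 0, 0 and 2 in the controls. Its unfiltered log2 fold change was 1.71 (edgeR adjusted p = 0.34). The 3 below are WBGene00004477, WBGene00004473 and WBGene00004494. WBGene00004473 had 10, 8, 4 and 18 reads against 2, 1, 2 and 6, and WBGene00004494 had 8, 4, 2 and 4 against 2, 1, 1 and 5. At these depths a single read is worth 5.36 to 66.8 CPM before TMM scaling. After it, a single read is worth 3.58 CPM in TGGC and 112.6 CPM in control TTAA. With 1 read more or less in control CCGG the groups would overlap for each of these 4 IDs.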

How the data were processed

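A single table for 8 iCLIP libraries was deposited by the authors, with unnormalised read counts for each gene ID. STAR 2.4.2 and HTSeq are named, without their roles, per the submitters' processing notes. Not given in the sources used here are the genome build, annotation, strand setting, handling of multiply mapped reads and any collapse of PCR copies. Columns name a group and a tag that is in no label, so they were given a group but no replicate number. The 2 rows that name no gene (9.73% to 12.4% and 0.573% to 0.696% of reads in FOG-3 libraries, 2.41% to 5.54% and 0.311% to 0.478% in controls) stayed out of library sizes and tests.

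For the test, edgeR 4.0.16 (R 4.3.3) was run on counts of all 12240 gene IDs (TMM, quasi-likelihood F test, group as the only term). The default filter (minimum count 10, minimum total 15) left 886 IDs, and calls used a Benjamini-Hochberg adjusted p under 0.05. Standard errors are the size of the fold change over the square root of F. DESeq2 1.42.0 and limma 3.58.1 (voom) were alternatives. Intervals are exact at 95.0%. Equal-depth numbers are expectations for draws without replacement. The labels call the libraries biological replicates. The spread between them was pooled over gene IDs by edgeR, so its p-values reflect little of each ID's own spread. Among the 10 tested IDs, standard errors with TMM ran from 0.39 (WBGene00004477) to 0.47 (rla-0). Their control SDs ran from 56.1 CPM (WBGene00004418) to 209 CPM (WBGene00004491).

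Members, lists and tests were chosen with earlier results of these data known. The named IDs are the rla genes and, for rpl and rps apart, up to 6 called per direction, the 3 with most reads and the 3 tested ones farthest from the family. No member with at least 50 reads had counts identical to another row. Lists of translation factors, mitochondrial ribosomal proteins and cell type markers, fixed by symbol, were not analysed, since 0 of the IDs could be matched to the reference of 46926 genes. For the same reason no sequence is shown.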

Additional observations from a re-analysis of the deposited data

Results flagged for a closer look

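Of 34 groups of 4 values examined with Dixon's test, which by chance marks about 1 in 20, 2 held a library that stood apart. The first was rla-2 in the controls, at 101.4 CPM in AATA from 2 reads and 0 in the other 3. The second was the rpl ID WBGene00004456 in FOG-3 libraries, at 219.1 CPM in CGGA, where the other 3 had 86.0 to 94.1 CPM. The summed family levels and the large-subunit share held no such library in either group.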

How the results depend on the processing

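Of the 10 tested ribosomal protein IDs, 0 were called higher and 2 lower with TMM, the 2 both of the small subunit. The counts moved to 2 higher (both large-subunit) and 0 lower with total counts alone, with the size factors of DESeq2 in edgeR and with DESeq2's own test. They moved to 8 higher (6 large-subunit, 2 small-subunit) and 0 lower when scaled on the most abundant ID. There were 0 lower when scaled on the summed ribosomal protein reads, 0 with no filter and 0 with a minimum of 1 CPM in 4 libraries, where more IDs were tested. TMMwsp gave 1 lower, and limma-voom 1 large-subunit and 1 small-subunit ID lower. The counts stayed at 0 and 2 with upper-quartile factors, a threshold of 0.01, totals without the 10 most abundant IDs, 1 ID kept of each identical set, and, chosen after seeing the data, without controls CCGG and TTAA. Leaving out each library in turn gave 0 higher and 0 to 2 lower IDs, the latter all small-subunit (0 of the large subunit in either direction). The median log2 fold change of the tested IDs, -0.62 with TMM, was 0.59 with total counts, 0.55 with DESeq2 size factors, 1.35 on the most abundant ID, 0.51 in DESeq2 and 0.025 without a filter. It ran from -0.63 to -0.16 when each library was left out. Its distance to the median of all tested IDs was -1.35 with TMM and ran from -2.003 (without control TTGT) to -1.21 when each library was left out. With 1 CPM in 4 libraries it was -1.15 and without a filter -1.13. The difference in the mean log2 share of the family, 0.79 for gene-assigned reads, was -0.59 for reads outside the 10 most abundant IDs and, added after seeing the data, -0.50 for TMM-scaled library size and 1.62 against the most abundant ID. Leaving out each library gave 0.49 (without control CCGG) to 0.99, and leaving out controls CCGG and TTAA 0.36. The log2 difference of the large-to-small ratio, 0.32, ran from 0.22 to 0.38 and was 0.15 without CCGG and TTAA. Single IDs turned to positive values, or to called ones, on the most abundant ID: 1.92 for WBGene00004412, 1.47 for WBGene00004415, 1.48 for WBGene00004418, 1.17 for WBGene00004430, 0.80 for WBGene00004469, 1.35 for WBGene00004471, 0.52 for WBGene00004477 and 1.34 for WBGene00004491. With total counts, DESeq2 size factors and DESeq2's test WBGene00004412 had 1.18, 1.14 and 1.10. WBGene00004469 had 0.046 with total counts and 0.0092 with DESeq2 size factors. Beyond the scaling itself and the number of IDs tested, the cause was not tested. No paired analysis was possible because the columns carry no replicate numbers. Depth limits the single IDs: controls CCGG and TTAA held 34 and 52 ribosomal protein reads.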
